A study of Saccharomyces cerevisiae with 15 samples.

Results

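Yeast makes lysine from 2-oxoglutarate and acetyl-CoA through the alpha-aminoadipate pathway, and the transcripts of 9 genes of this pathway were followed while S. cerevisiae went from glutamine to proline as N-source. The genes were taken by symbol from a given list (LYS1, LYS2, LYS4, LYS5, LYS9, LYS12, LYS14, LYS20 and LYS21), all 9 were measured by 1 probe set each, and they are 9 of 5449 genes that the array names. The wild-type, prototrophic strain YSBN6 grew in glucose minimal medium with both glutamine and proline in 3 independent bioreactor cultures, and minute 0 is the moment when the broth had no detectable glutamine left. Each of the 15 samples was hybridized to its own Affymetrix Yeast Genome 2.0 array. All 3 cultures were sampled at −10 min (steady state on glutamine), 7 min and 24 min, and culture 1 alone at −5, 3, 10, 14, 56 and 120 min, with 1 array each. According to the study's supplementary timing the steady-state samples were drawn earlier than the labels say, at a different time in each culture. The labelled times are used here.

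At the start of the pathway, homocitrate synthase (Lys20 and Lys21) joins 2-oxoglutarate with acetyl-CoA, and homoaconitase (Lys4) and homoisocitrate dehydrogenase (Lys12) convert the product to 2-oxoadipate. An aminotransferase then makes alpha-aminoadipate, which the reductase Lys2 reduces once Lys5 has attached its phosphopantetheine group. Lys9 condenses the semialdehyde with glutamate to saccharopine, and Lys1 splits saccharopine into lysine and 2-oxoglutarate, so the carbon skeleton of glutamate is returned. Lys14 is the pathway's transcription activator, known to respond to alpha-aminoadipate semialdehyde, and the general amino acid regulator Gcn4 acts on several of the genes. Lysine also restrains its own synthesis by feedback on homocitrate synthase.

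Values are fluorescence intensities on a linear scale, already normalized over the 15 arrays by the authors. They measure abundance relative to the other transcripts of a sample, so that fewer transcripts of one gene per cell and a change in total mRNA cannot be told apart. The summed intensity was 22691203 to 23323727 on the arrays at −10 and 7 min and 23308293 to 24045522 at 24, 56 and 120 min, and precision is limited by how many arrays there are. All 9 genes lay above the background level (an intensity of 68.1) on 15 of 15 arrays, as did the marker genes LEU2, URA3 and HIS3, which the prototrophic strain should carry intact. Changes are given as log2 ratios from limma with 1 mean per sampled time. Calls rest on an adjusted p below 0.05, with the Benjamini-Hochberg procedure applied to 5498 probe sets. Times with 1 array are assumed to vary like the times with 3 cultures.

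At 24 min the members went both ways. The transcripts of LYS20, LYS4, LYS12 and LYS2, whose enzymes act up to alpha-aminoadipate semialdehyde, had fallen, with log2 changes of −1.62 for LYS4 and −0.45 to −0.70 for the others. Those of LYS5, LYS9, LYS1 and LYS14 had risen by 0.10 to 0.40, although Lys5 acts on Lys2. LYS21, for the same step as LYS20, did not pass the test, so direction did not follow pathway order alone. Thus 8 of 9 members were called, 4 higher and 4 lower, where 82.2% of all 5498 transcripts were called at this time (46.9% higher and 35.2% lower), and the count of members called is close to that share. The values at 24 min and at −10 min did not overlap for the same number, 4 members being higher in every culture and 4 lower, where 84.4% of all transcripts did not overlap (48.3% higher and 36.2% lower). The median of the members' log2 changes was 0.09, as was that of all transcripts (0.09). The median size of the change, regardless of direction, was 0.40 among members and 0.36 over all transcripts.

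**Figure D1:**
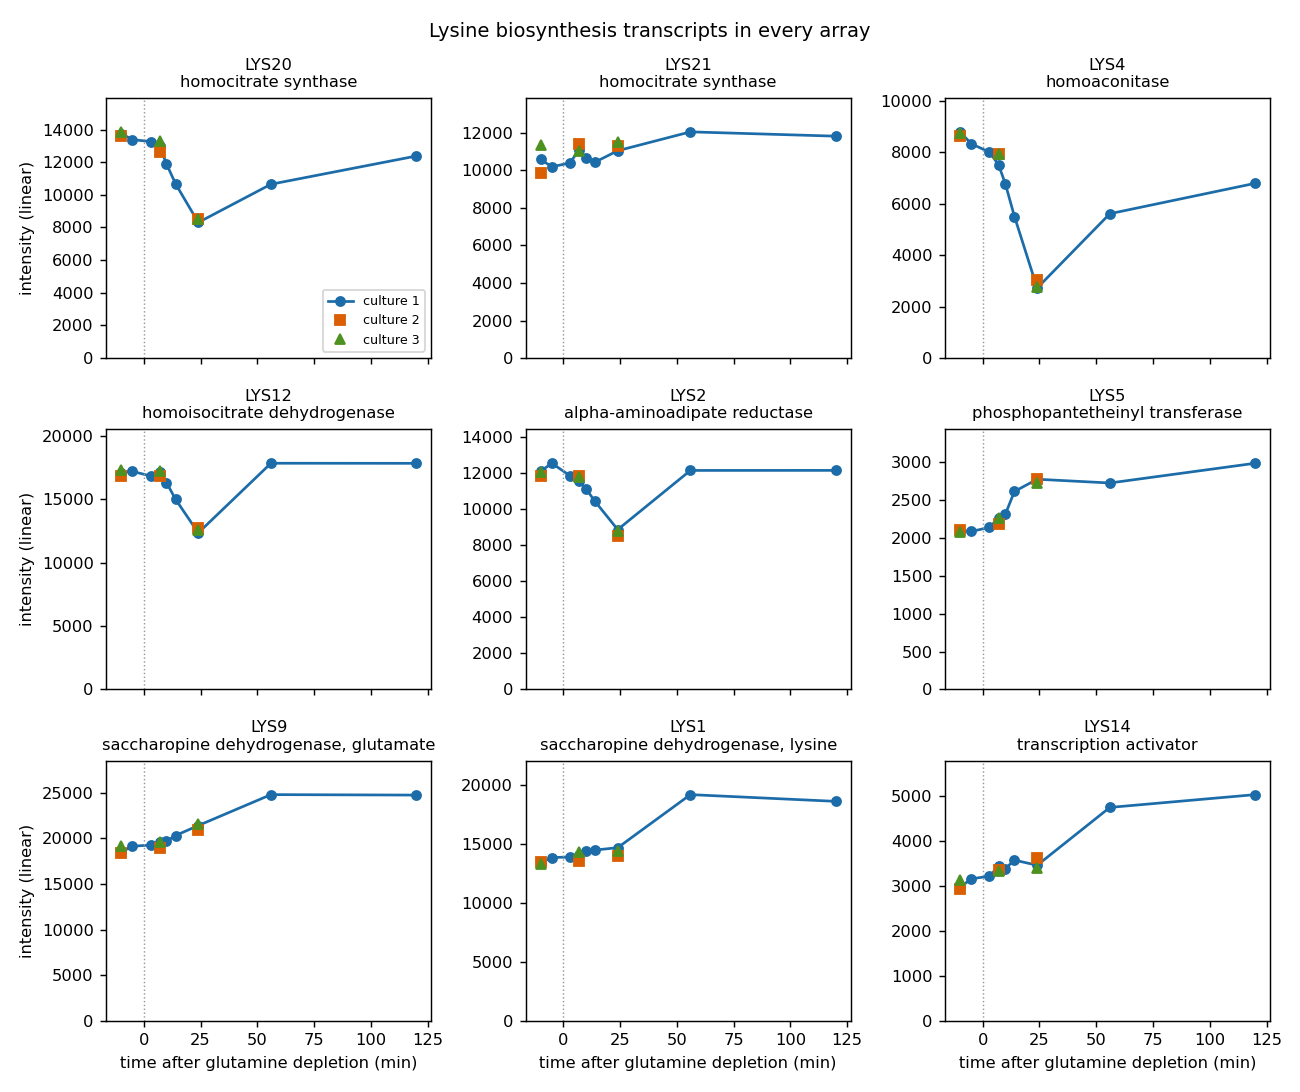
Intensity (linear scale, from 0) of the 9 transcripts against time after glutamine depletion in minutes, with 1 point per array, circles joined by lines for culture 1, squares for culture 2 and triangles for culture 3. LYS20, LYS4, LYS12 and LYS2 had their lowest value at 24 min, whereas LYS5, LYS9, LYS1 and LYS14 were highest at 56 or 120 min.

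LYS4 (YDR234W) showed the largest change. Its intensity was 8802, 8651 and 8739 at −10 min in cultures 1, 2 and 3, 7522, 7924 and 7956 at 7 min and 2724, 3033 and 2780 at 24 min. The 3 times did not overlap, and all 3 cultures declined at each step. The mean went from 8731 ± 75.7 to 2846 ± 164 (SD, n = 3), which is 3.07-fold lower (log2 −1.62, SE 0.04, limma adjusted p = 3.21e-12). In culture 1, which has the dense sampling, LYS4 read 8340 before depletion (−5 min) and then 8009, 6774 and 5508 after 3, 10 and 14 min. It stood at 5617 at 56 min and 6800 at 120 min, above its 24 min level and below its steady-state level. The decline from 10 to 24 min was steeper than that before 10 min.

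LYS20 (YDL182W) and LYS21 (YDL131W) encode isoenzymes of homocitrate synthase, the first and feedback-inhibited step, and their transcripts parted. LYS20 measured 13757, 13622 and 13860 at −10 min, 12980, 12614 and 13285 at 7 min and 8308, 8517 and 8537 at 24 min, again without overlap between any of these times. Its log2 change at 24 min was −0.70 (SE 0.03, adjusted p = 1.08e-10 from limma), or 1.63-fold lower. LYS21 measured 10597, 9844 and 11355 at −10 min, 11111, 11389 and 11019 at 7 min and 11052, 11280 and 11511 at 24 min. These groups overlapped, the −10 min values of LYS21 being the most scattered of the 9 genes (SD 756, n = 3), and the log2 change at 24 min was 0.09 (SE 0.04, adjusted p = 0.0645). Without culture 3 it was 0.13 and passed (adjusted p = 0.0327 from limma). The per-array log2 difference of LYS20 from LYS21 shifted by −0.79 from −10 to 24 min (−0.72 to −0.87 within single cultures), in the same direction in 3 of 3 cultures. An exact two-sided permutation test over samples, without the pairing by culture, gave p = 0.1. That is the smallest that 3 against 3 samples allow. At 7 min the shift was −0.16 (exact permutation p = 0.1, −0.02 to −0.32 within cultures). The annotation gives each of these probe sets 1 gene, and the name of neither marks probes shared within a gene family. Cross-hybridization between these similar paralogs was not tested.

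LYS12 (YIL094C) and LYS2 (YBR115C) followed a shallower course with the same low point. LYS12 was at 17099, 16868 and 17336 at −10 min, at 17163, 16862 and 17242 at 7 min and at 12353, 12712 and 12611 at 24 min. Its values at 7 min overlapped those of the steady state (log2 change −0.00097, adjusted p = 0.978 from limma), and it had dropped in all cultures by 24 min (log2 −0.45, SE 0.02, adjusted p = 2.17e-09). LYS2 was at 12085, 11834 and 12030, then at 11569, 11811 and 11779, and at 24 min at 8857, 8514 and 8767. Every 7 min value of LYS2 lay just below the steady-state range, without passing the test (−0.03, adjusted p = 0.339), and by 24 min the values had dropped further in every culture (log2 −0.46, SE 0.02, adjusted p = 3.57e-09). LYS5 (YGL154C), whose product activates Lys2, moved in the opposite direction. It rose from 2096, 2108 and 2073 to 2265, 2191 and 2260 at 7 min and to 2777, 2775 and 2731 at 24 min, where the log2 change was 0.40 (SE 0.04, adjusted p = 3.61e-07). No value of LYS5 at a later replicated time overlapped those at an earlier one.

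The genes of the last 2 enzymes rose little by 24 min. LYS9 (YNR050C), for the saccharopine dehydrogenase that uses glutamate, had intensities of 18488, 18430 and 19100 at −10 min, 19580, 18943 and 19622 at 7 min and 21395, 20945 and 21545 at 24 min. Only the 24 min values stood clear of the steady state (log2 change 0.19, SE 0.02, adjusted p = 1.29e-05 from limma). LYS1 (YIR034C), for the saccharopine dehydrogenase that forms lysine, went from 13406, 13510 and 13280 over 14056, 13579 and 14303 to 14702, 14034 and 14459. Every 24 min value was above every steady-state value, and the log2 change was 0.10 (SE 0.03, adjusted p = 0.00351). That call depends on culture 1 and on culture 3: without the former the adjusted p was 0.0685 and without the latter 0.0627. LYS9 was among the brightest probe sets of the array, with 39 of 5498 brighter on average, and whether changes are compressed in so bright a range was not tested. The log2 difference of LYS9 from LYS1 shifted by 0.09 from −10 to 24 min (exact permutation p = 0.1, the smallest possible with 3 against 3) and by −0.0071 at 7 min (exact permutation p = 0.9).

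LYS14 (YDR034C), for the activator, rose in every culture. It measured 2970, 2931 and 3145 at −10 min, 3444, 3354 and 3337 at 7 min and 3466, 3627 and 3411 at 24 min. Both later times lay above the steady state but overlapped each other. The log2 change was 0.16 at 7 min (SE 0.04, adjusted p = 0.00529 from limma) and 0.22 at 24 min (SE 0.04, adjusted p = 0.00023), and 24 against 7 min did not pass (0.05, adjusted p = 0.245). Thus transcripts of the activator were higher while those of LYS20, LYS4, LYS12 and LYS2 were lower.

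**Figure D2:**
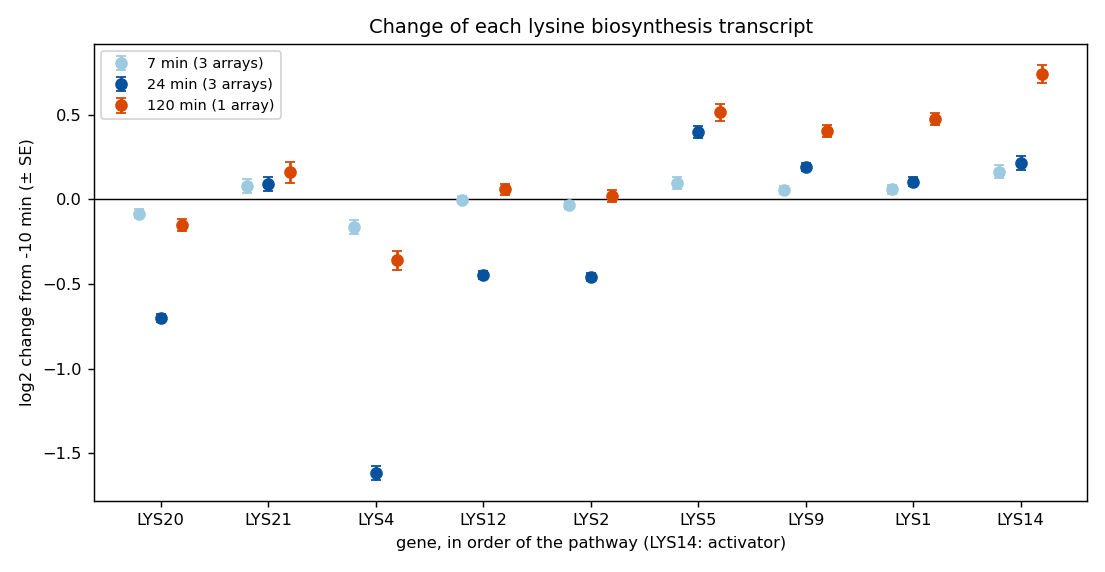
Log2 change from −10 min (vertical axis, bars are the SE from limma) of each transcript at 7 and 24 min (3 arrays each) and 120 min (1 array), with the genes in order of the pathway and the activator LYS14 last. At 24 min LYS20, LYS4, LYS12 and LYS2 were below 0, with LYS4 at −1.62, and at 120 min LYS4 and LYS20 were still below 0 while LYS12 and LYS2 were at 0.06 and 0.02.

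Little of this was visible by 7 min. The members' log2 changes ran from −0.16 to 0.16 (median 0.05, against −0.01 over all transcripts), and 4 of 9 were called, where 39.4% of all transcripts were. LYS14 and LYS5 were higher (0.16 and 0.10) and LYS4 and LYS20 lower (−0.16 and −0.09), against 18.5% higher and 20.9% lower over the array. The values at 7 min lay above all those at −10 min for LYS5, LYS14 and LYS1 and below them for LYS4, LYS20 and LYS2, where 51.9% of all transcripts did not overlap (22.4% higher and 29.5% lower). These calls were not stable. Without culture 1, 0 members passed the limma test at 7 min, and without culture 3 only LYS14 did. With each array centred on its median, LYS4 (−0.11) and LYS20 (−0.04) no longer passed, while LYS9 (0.10) and LYS1 (0.11) did. That centring moved the share of higher calls among all transcripts called from 46.9% to 63.1%. With the culture as a block, LYS5 did not pass (adjusted p = 0.0827). At −5 and 3 min, 0 of 9 members were called, with 0 at an unadjusted p under 0.05 in limma (0.0182% and 3.69% of all transcripts were called, the latter as 2.56% higher and 1.13% lower). Of the 203 calls at 3 min over the array 69.5% were higher, and 57.2% of 453 with quantile normalization. With the culture block, without a trend or without culture 3, 1 transcript was called at 3 min, and it was lower, whereas 1046 were called without culture 2, LYS4 (−0.13, adjusted p = 0.042) being the member among them. From 7 to 24 min, LYS4 (−1.46), LYS20 (−0.62), LYS12 (−0.44) and LYS2 (−0.43) fell and LYS5 (0.30) and LYS9 (0.14) rose, which is 4 of 9 lower and 2 of 9 higher against 29.9% and 46.9% over the array (76.8% in either direction). For these 6 genes the values at both times did not overlap, as for 80% of all transcripts (49% higher and 31.1% lower).

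The dense sampling of culture 1 placed most of the decline of LYS20, LYS4, LYS12 and LYS2 between 10 and 24 min. At 10 min LYS4, LYS20 and LYS2 were called lower (−0.37, −0.21 and −0.11) and LYS5, LYS14 and LYS1 higher (0.15, 0.17 and 0.11), where 25.5% and 25.6% of all transcripts were called (51.2% in either direction). When limma took culture as a block, LYS5, LYS14 and LYS1 were no longer called higher at 10 min, and without culture 3 only LYS14 was. The call of LYS1 at 10 min was also lost with quantile normalization (0.08) and without a trend (0.11). LYS9 was called higher at 10 min with quantile normalization (0.11), with median centring (0.13) and without culture 2 (0.07). LYS2 did not pass at 10 min with median centring (−0.05, adjusted p = 0.286), without a trend or without culture 3 (adjusted p = 0.0587 and 0.119). Of all calls at 10 min 50.1% were higher, and 61.7% with each array centred on its median. At 14 min LYS12 (−0.19) had joined the falls and LYS9 (0.12) the rises, so that 4 of 9 were lower and 4 higher, against 29.4% and 38.2% over the array (67.6% in either direction). The call of LYS1 at 14 min (0.11) was lost with the culture block (adjusted p = 0.0549), quantile normalization (0.0904), no trend (0.0555) and without culture 3 (0.0921). By linear interpolation in culture 1, the midpoint of the largest log2 change was reached at 13.9 min for LYS20, 14.4 min for LYS2, 15.6 min for LYS12 and 15.7 min for LYS4, all with their largest change at 24 min. LYS5 reached the midpoint of its largest rise at 12.5 min, whereas LYS9, LYS1 and LYS14 did so at 24.1, 34.5 and 35.1 min, with their highest values at 56 or 120 min. These times come from 1 culture and have no error. No array lies between 24 and 56 min, so the midpoints of LYS9, LYS1 and LYS14 are placed only within that gap.

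After 24 min the transcripts that had fallen came back and those of LYS1, LYS9 and LYS14 rose further. Against 24 min, 7 of 9 members were higher and 0 lower both at 56 min, where 44.8% of all transcripts were called (32.6% higher and 12.2% lower), and at 120 min, where 51.2% were called (30.2% higher and 21% lower). The members' median gain was 0.42 and 0.48, against 0.08 and 0.03 over all transcripts. LYS21 and LYS5 did not pass at either time. Over the array 72.8% of the calls at 56 min against 24 min were higher, a share that was 52.3% with quantile normalization and 53.3% with median centring, and at 120 min it was 59.0% and 47.0% with quantile normalization. At 120 min the gain over 24 min was 1.26 for LYS4 (SE 0.06, adjusted p = 1.15e-08 from limma, 1 array against 3), 0.55 for LYS20, 0.51 for LYS12 and 0.48 for LYS2. In culture 1 alone, LYS12 went from 12353 at 24 min to 17846 and 17839 at 56 and 120 min, and LYS2 from 8857 to 12137 and 12139. Both were then at or above their value of −10 min in that culture, and neither passed the test against −10 min at 56 or 120 min (LYS12 0.06 at both times, LYS2 0.02). With quantile normalization LYS12 did pass, at 0.14 (adjusted p = 0.000984) and 0.13 (adjusted p = 0.0016). LYS20 went from 8308 to 10650 and 12379. It and LYS4 had regained 79.1% and 78% of their log2 decline in culture 1 by 120 min, a measure chosen after the values had been seen, and both were still called lower than at −10 min (−0.15, adjusted p = 0.00256, and −0.36, adjusted p = 9.69e-05).

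Transcripts of LYS1, LYS9, LYS5, LYS21 and LYS14 ended above their steady state. LYS1 stood at 19205 and 18633 at 56 and 120 min, against 14702 at 24 min in the same culture, with a log2 change from −10 min of 0.48 at 120 min (SE 0.04, adjusted p = 2.07e-07 from limma). LYS9 was at 24783 and 24732 (0.41 at 120 min), LYS5 at 2728 and 2989 (0.51) and LYS21 at 12058 and 11828 (0.16, adjusted p = 0.0296). LYS21 did not pass with median centring at 56 min (0.12, adjusted p = 0.182 against 0.0132) or 120 min (0.14, adjusted p = 0.134), nor at 120 min without a trend (adjusted p = 0.0624). LYS14 reached 4754 and 5039, a log2 change at 120 min of 0.74 (SE 0.05, adjusted p = 9.92e-08), which was the largest rise among the 9. Against −10 min, 5 of 9 members were thus higher and 2 lower at both late times, where 79.1% of all transcripts were called at 56 min (49.4% higher and 29.7% lower) and 77.3% at 120 min (44.4% higher and 32.9% lower). Each late time has 1 array of 1 culture, so the return has no replicate.

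Over the 15 arrays, which share cultures and times, the log2 profiles of LYS20, LYS4, LYS12 and LYS2 correlated with each other by Pearson's r of 0.91 (LYS20 with LYS12) to 0.99 (LYS20 with LYS4). Those of LYS9, LYS1 and LYS14 did so by 0.94 to 0.95. Between these groups the coefficients ran from −0.51 (LYS20 with LYS9) to 0.17 (LYS12 with LYS1). LYS5 was nearest to LYS9 (0.87) and opposed LYS20 (−0.79), and LYS21 was nearest to LYS9 (0.73). The division into groups was read from these values and is a description. The profile averaged over the 7 enzyme genes LYS1, LYS2, LYS4, LYS9, LYS12, LYS20 and LYS21 followed the genes with the larger changes, with r of 0.91 to 0.996 for LYS20, LYS4, LYS2 and LYS12, but not LYS21 (−0.08), LYS9 (−0.13) or LYS1 (0.18), which are part of the average too. Among non-members, the genes most like this average were HXT3, for a glucose transporter (YDR345C, r = 0.986 over 15 arrays), GCV1, for a subunit of glycine decarboxylase (YDR019C, r = 0.981), ROX1, for a repressor of hypoxic genes (r = 0.973), RBD2 (r = 0.971) and AGA2, for a subunit of a-agglutinin (r = 0.969). Those most like LYS14 were HAP1, for a heme-responsive regulator (YLR256W, r = 0.986), the retrotransposon reading frame YGR109W-B (r = 0.976) and RPN4, for a regulator of proteasome genes (r = 0.971).

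Other genes that handle lysine or its precursors moved as well. Of 17 such genes analysed here, 10 were higher and 6 lower at 24 min (median 0.30), where 46.9% and 35.2% of all transcripts were, so the count called is again near the share over the array (82.2%). The alpha-aminoadipate step, which lies between the enzymes of LYS12 and LYS2, is served by the aminotransferases Aro8 and Aro9. ARO8 rose from an intensity of 12524 ± 181 to 15192 ± 409 (SD, n = 3; log2 change 0.28, adjusted p = 8.41e-07 from limma), and ARO9 from 162 ± 7.31 to 522 ± 7.00 (SD, n = 3; 1.69, adjusted p = 2.35e-09). Neither therefore shared the decline of LYS12 and LYS2 at 24 min. ODC1 and ODC2 encode mitochondrial carriers of oxodicarboxylates such as 2-oxoadipate, and they diverged. ODC1 rose from 1677 ± 66.5 to 4541 ± 295 (SD, n = 3; log2 change 1.44, adjusted p = 2.39e-10), and ODC2 fell from 11648 ± 161 to 8474 ± 195 (SD, n = 3; −0.46, adjusted p = 9.35e-09).

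**Figure D3:**
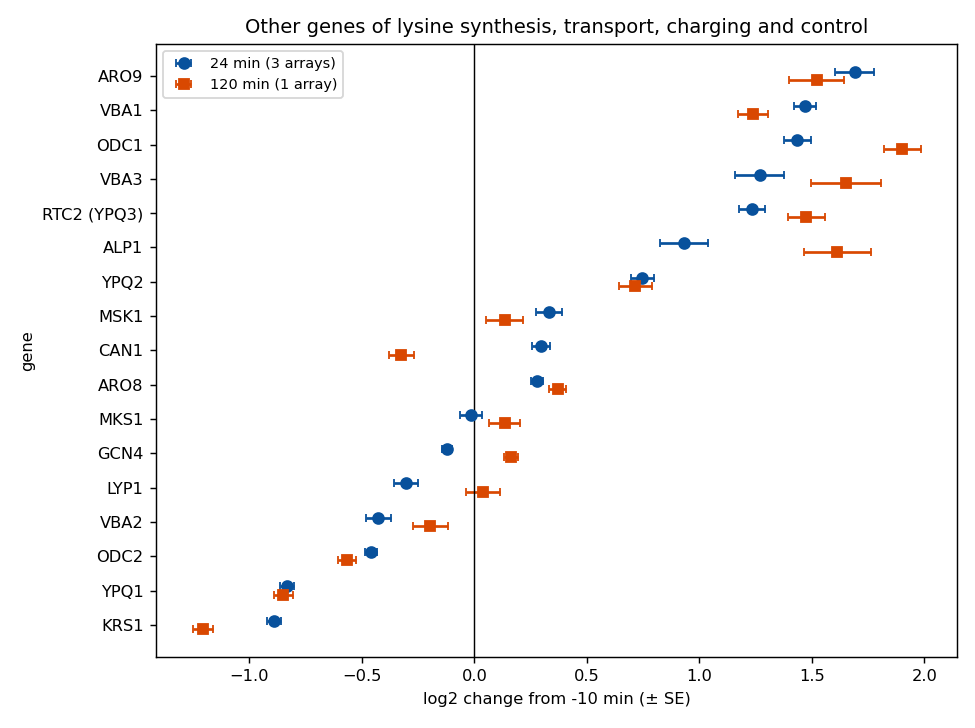
Log2 change from −10 min (horizontal axis, bars are the SE from limma) of 17 other genes of lysine synthesis, transport, tRNA charging and control at 24 min (circles, 3 arrays) and 120 min (squares, 1 array). ARO9, VBA1 and ODC1 lay farthest to the right at 24 min and KRS1 farthest to the left.

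KRS1, for the cytosolic lysyl-tRNA synthetase, had the largest decline of this list, from 12677 ± 139 to 6845 ± 283 (SD, n = 3; log2 change −0.89, adjusted p = 6.78e-11 from limma), and it was lower still at 120 min (−1.21, and −0.32 against 24 min, adjusted p = 9.64e-05). MSK1, its mitochondrial counterpart, changed by 0.33 at 24 min. The lysine permease gene LYP1 changed by −0.30 at 24 min, with −0.13, −0.50 and −0.28 within cultures 1, 2 and 3. It stood at 0.04 at 120 min, a time sampled in culture 1 alone. CAN1, for the arginine permease, had changes of 0.30 and −0.32 at these times. Its relative ALP1 had changes of 0.93 and 1.61 from a dim start. The intensity of ALP1 at −10 min was 104 ± 2.45 (SD, n = 3), near the background level of 68.1. Genes for vacuolar transporters of basic amino acids went both ways. VBA1 rose from 6033 ± 155 to 16699 ± 601 (SD, n = 3; 1.47, adjusted p = 3.17e-11), and YPQ2 and RTC2 (YPQ3) were at 0.75 and 1.23, while YPQ1 (−0.83) and VBA2 (−0.43) fell. VBA3 was not above the background level at −10 min in 3 of 3 cultures. With intensities under that level set to it, VBA3 was at least 1.92-fold higher at 24 min. The limma test (adjusted p = 3.22e-07) used the intensities as given, also those under the background level. Transcripts of GCN4, which is known to be controlled mainly at translation, changed by −0.12 at 24 min (adjusted p = 0.000228), a call that was lost with quantile normalization (−0.02, adjusted p = 0.392), and by 0.16 at 120 min. Those of MKS1, a negative regulator of the pathway through 2-oxoglutarate supply, did not pass at 24 min (−0.01, adjusted p = 0.789), and with quantile normalization they were at 0.11 and passed.

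At 24 min the other amino acid pathways had lower medians than the 9 listed lysine genes, without a test of that difference. The lysine genes had a median log2 change of 0.09, and 4 of 9 were lower. Their list includes LYS14 (0.22), for the activator, and LYS5 (0.40), for the protein that modifies Lys2, whereas the other lists hold no activator gene. Among the 7 enzyme genes alone the middle value was that of LYS12 (−0.45), below the histidine and aromatic medians. Of 7 histidine genes 6 were lower (median −0.39), of 7 arginine genes 5 (−0.58), of 11 aromatic genes 8 (−0.35), of 11 branched-chain genes 10 (−0.82) and of 5 threonine genes 4 (−0.62), against 35.2% of all transcripts. The largest changes past the threshold in these lists were those of HIS6 (−1.63), ARG8 (−1.27), ARO2 (−1.26), LEU9 (−3.18) and HOM3 (−2.04), and that of LYS4 (−1.62) was close to that of HIS6. At 120 min against 24 min, where 7 lysine genes were higher and 0 lower, the counts were 1 and 3 for histidine, 3 and 2 for arginine, 0 and 10 for aromatic, 3 and 3 for branched-chain and 1 and 3 for threonine genes, against 30.2% higher and 21% lower over the array. All comparisons with −10 min share the same 3 steady-state arrays.

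**Figure D4:**
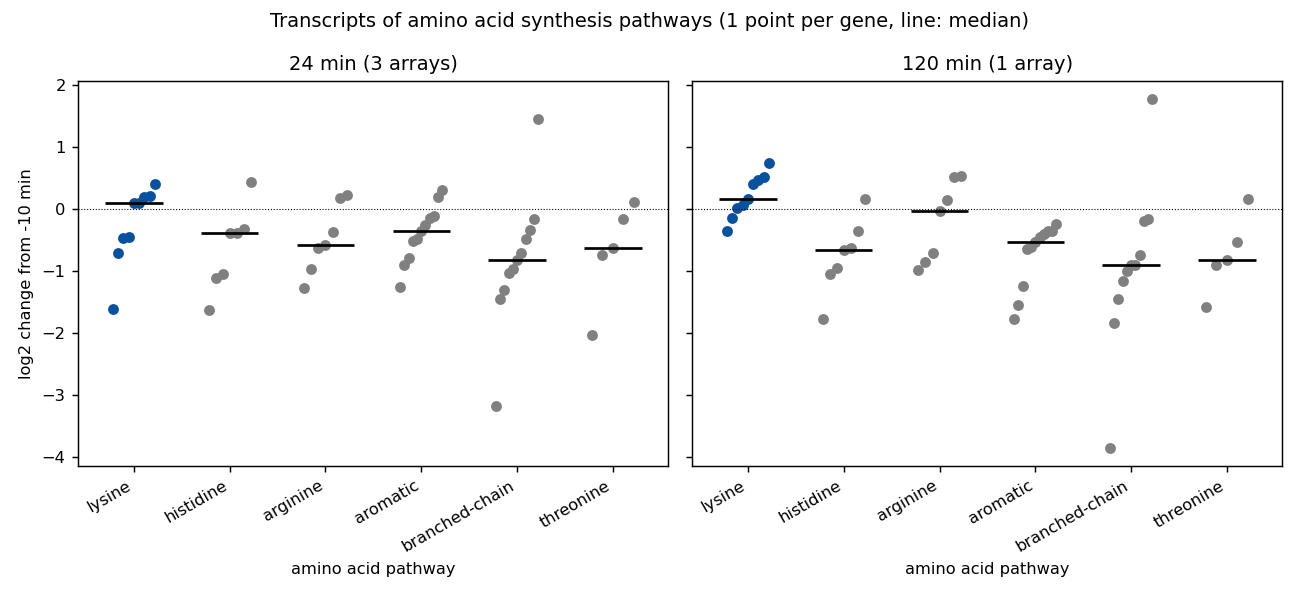
Log2 change from −10 min (vertical axis) at 24 min (left, 3 arrays) and 120 min (right, 1 array), with 1 point per gene and a line at the median of each amino acid pathway. The lysine genes, with LYS5 and the activator LYS14 among them, had a median of 0.09 at 24 min and 0.16 at 120 min. The other pathways, without an activator gene, had medians of −0.35 to −0.82 at 24 min.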

How the data were processed

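Transcripts of the N-downshift were measured on 15 Affymetrix Yeast Genome 2.0 arrays, and the deposited values are linear intensities, 1 per probe set and array. The authors' methods describe background correction by RMA, use of the perfect-match probes alone, QSPLINE normalization over all 15 arrays and summarization after Li and Wong. R 2.10.0, affy and RMA appear in the submitters' notes. Of 10928 probe sets, 5498 have 1 S. cerevisiae gene in the platform annotation (5449 genes) and were tested. A gene with several probe sets is represented in lists and correlations by its brightest. The background level is the 95th percentile of the mean log2 intensity of 1746 probe sets for another organism.

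Log2 intensities, without a pseudocount, were fitted with limma 3.58.1 in R 4.3.3 (1 mean per time, eBayes with trend, 6 residual degrees of freedom, two-sided). The procedure was tried on simulated data with independent noise and few changed probe sets. Those data held no culture effect and no shift of whole arrays, so they do not cover these features of the real arrays. Replicate numbers stand for bioreactor cultures in the labels and therefore pair the samples, although residuals of arrays from the same culture correlated only by −0.271 to 0.189. Other settings were a block for culture (fixed or random), normalization by quantiles or by array medians, an offset of 50, a filter on dim probe sets (above background on 3 arrays), no trend, the replicated times alone, and omission of each culture. Genes were named by rule, namely the 9 members, the lysine-related list, 1 leading gene of each other pathway, and the 5 and 3 genes closest in profile to the enzyme average and to LYS14. Members and lists were chosen with earlier results of these data known. A planned promoter motif search was not run.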

Additional observations from a re-analysis of the deposited data

How the results depend on the processing

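At 24 min the calls of LYS20, LYS4, LYS12, LYS2, LYS5, LYS9 and LYS14 kept their direction and stayed past the threshold in all 11 alternatives, and the change of LYS4 ranged from −1.68 to −1.58. The call of LYS1 was lost without culture 1 or 3, and LYS21 passed without culture 3. The replicate block (culture as a fixed block) gave 4442 calls over the array at 24 min against 4517, and 2040 against 2165 at 7 min. At 7 min it left 1 member higher instead of 2, and at 10 min 0 instead of 3. It ended the calls of LYS5 at 7 min, of LYS5, LYS1 and LYS14 at 10 min, of LYS1 at 14 min and, outside the members, of LYP1 at 7 min. At 7 min median centring gave 4 members higher and 0 lower, and a fit without a trend gave 1 lower. Leaving out 1 culture gave 0 to 4 members higher and 0 to 2 lower at 7 min, 0 to 1 lower at 3 min, 1 to 4 higher at 10 min, and 1184 (without culture 1), 1299 (without culture 3) or 2544 (without culture 2) calls over the array at 7 min. The shift of LYS9 from LYS1 at 7 min then ran from −0.027 to 0.023. The cause was not tested, beyond the fewer samples.

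Sign changes affected 22 values of single genes, 0 of them past the threshold as reported. With median centring they were LYS12 (0.048), LYS2 (0.016) and GCN4 (0.013) at 7 min, LYS21 at 24 against 7 min (−0.021), LYS12 (−0.0063) and LYS2 (−0.049) at 56 min and LYS2 at 120 min (−0.0045). With quantile normalization they were LYS21 (−0.0314) and LYS14 (−0.0315) at 24 against 7 min, LYS21 at 10 min (−0.017), VBA3 at 7 min (−0.042) and MKS1 at 24 min (0.106, adjusted p = 0.0088 from limma). Leaving out 1 culture gave −0.0042 to 0.0024 for LYS12, −0.066 to 0.065 for VBA3 and −0.019 to 0.130 for YPQ2 at 7 min, −0.011 to 0.028 for LYS21 at 24 against 7 min, and −0.044 to 0.043 for MKS1 at 24 min. At −5 min it gave −0.00099 to 0.019 for LYS12 and −0.0101 to 0.0020 for LYS5, and for LYS21 −0.076 to 0.027 at 3 min, −0.039 to 0.064 at 10 min and −0.071 to 0.032 at 14 min. Without culture 1 the single-array times have no value.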
